A study of Glycine max with 6 samples.

Results

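The genes described here are 6 soybean genes for WRKY transcription factors, among 39712 genes with a value above 0 in at least 1 library. They were chosen by gene ID from genes whose level differed between low and high phosphate in these same libraries, so the difference between treatments is given for them as a description: no p-value is printed, and the calls of the test over all genes are given only as counts. Plants of the soybean genotype YC03-3, nodulated by the rhizobium USDA110, were grown in hydroponics with 500 μM (HP) or 25 μM KH2PO4 (LP), concentrations that the sample labels write in mM. Nodules larger than 3 mm were harvested 25 days after transplanting, 2 plants were pooled for a library, and 3 libraries were made per treatment. Both treatments share the genotype, the rhizobium and the age, so each value is that of 1 genotype with 1 strain. Levels are in FPKM, which divides the sequenced fragments of a gene by its length and by the library total, and the totals were 17716117 to 18909026 fragments.

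WRKY factors are plant transcription factors named after a short conserved run of amino acids in their DNA-binding domain, which contacts a promoter element called the W-box. They form a large family known mainly from immunity, senescence and abiotic stress, and many of their genes are themselves switched on quickly by pathogens, wounding and hormones. In Arabidopsis, some members also act in the response of roots to phosphate starvation. The names used here are those of the closest described proteins and mostly follow the Arabidopsis numbering. The roles given below are those of the Arabidopsis genes of the same number.

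At LP, 5 of the 6 genes had higher means and 1, WRKY70-like, had a lower mean. By the limma test used for all genes, which asked for an adjusted p up to 0.05 and for 2-fold or more, 3 were counted as higher, namely WRKY46, WRKY53-like and WRKY40-like, 1 as lower, and WRKY48-like and WRKY55 as neither. Over the 31181 genes tested, 3.34% were counted as higher and 4.39% as lower. Every LP library lay above every HP library for 4 of the 6 genes and below for 1, against 11.1% above and 33.4% below over all genes tested. Since the genes were picked on this contrast, nothing is read from these counts. All 6 were above the minimum of 0.5 FPKM in every library. The counts depended on the libraries and settings used. Without LP replicate 1 or without LP replicate 2 none of the 6 was counted as higher in the limma test. There were 4 without LP replicate 3, 2 without any 1 HP library, and 2 to 4 under the processing settings listed at the end. The log2 fold changes of WRKY46, WRKY53-like and WRKY40-like were 1.30, 1.44 and 1.87 without LP replicate 1. Without LP replicate 2 they were 0.91, 1.56 and 2.07. A test with fewer libraries is weaker, so a lost call does not show reliance on 1 library.

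WRKY40-like (Glyma.07G023300, chr7:1772171-1774607, minus strand, assembly Wm82.a2.v1) carries the name of an Arabidopsis repressor that acts in defence and in abscisic acid signalling. Its level was 13.2, 10.6 and 2.94 FPKM in HP replicates 1 to 3 and 34.0, 25.8 and 29.4 FPKM in LP replicates 1 to 3. The LP libraries were close to each other and all above HP, whereas HP replicate 3 lay far below the other HP libraries. That library held 93 fragments of the gene (95% exact Poisson interval 75.1 to 113.9, for counting error only), against 321 (286.8 to 358.1) in HP replicate 2. The HP mean was 8.91 ± 5.34 and the LP mean 29.7 ± 4.11 FPKM (SD, n = 3), with a log2 fold change of 1.97 (SE 0.51) on the log2(FPKM + 0.1) scale. Without HP replicate 3 it was 1.31 (SE 0.16).

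WRKY53-like (Glyma.05G215900, chr5:39636109-39638136, minus strand) is named after an Arabidopsis factor that promotes leaf senescence. It stood at 7.76, 9.32 and 4.26 FPKM in the HP libraries and at 30.6, 26.2 and 13.1 FPKM in the LP libraries. The groups did not overlap, and replicate 3 was the lowest library of both treatments. The means were 7.11 ± 2.59 and 23.3 ± 9.09 FPKM (SD, n = 3), and the log2 fold change was 1.68 (SE 0.38).

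WRKY46 (Glyma.16G026400, chr16:2563164-2566407, plus strand) shares its number with an Arabidopsis gene of salicylic acid-dependent defence and of osmotic stress. Its level was 4.19, 8.01 and 6.45 FPKM at HP and 14.0, 24.3 and 9.19 FPKM at LP. The lowest LP library, replicate 3, was just above the highest HP library, replicate 2. The means were 6.21 ± 1.92 and 15.8 ± 7.73 FPKM (SD, n = 3), and the log2 fold change was 1.27 (SE 0.37), or 0.91 without LP replicate 2.

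WRKY55 (Glyma.07G057400, chr7:5100360-5103308, plus strand) was the least abundant of the 6 in HP replicates 1 and 3 and in LP replicate 3. It had 2.68, 3.57 and 1.40 FPKM at HP and 7.58, 11.6 and 3.16 FPKM at LP. LP replicate 3 was below HP replicate 2, so this gene alone among the 6 had groups that overlapped. The means were 2.55 ± 1.09 and 7.46 ± 4.24 FPKM (SD, n = 3), and the log2 fold change was 1.42 (SE 0.50).

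WRKY48-like (Glyma.07G238000, chr7:41926439-41929460, minus strand) bears the number of an Arabidopsis repressor of basal resistance to bacteria. It was the steadiest of the 6 between replicates, with 3.56, 3.51 and 2.54 FPKM at HP and 6.63, 6.33 and 5.25 FPKM at LP. All LP libraries lay above all HP libraries. The means were 3.20 ± 0.575 and 6.07 ± 0.726 FPKM (SD, n = 3), a ratio of 1.90, and the log2 fold change of 0.91 (SE 0.17) fell just short of the 2-fold mark.

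WRKY70-like (Glyma.09G274000, chr9:49008545-49010574, plus strand) takes its name from an Arabidopsis factor that links salicylic acid and jasmonic acid signalling and restrains leaf senescence. It had 32.4, 35.5 and 19.6 FPKM in the HP libraries and 14.8, 10.4 and 7.97 FPKM in the LP libraries. Every LP library was below every HP library, and replicate 3 was again the lowest of each treatment. The means were 29.1 ± 8.42 and 11.1 ± 3.46 FPKM (SD, n = 3), and the log2 fold change was -1.39 (SE 0.28). Whole nodules were sequenced, so a change in the share of cells that express a gene and a change in its RNA per cell cannot be told apart, for the lower level of WRKY70-like at LP as for the higher levels of the other 5.

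**Figure D1:**
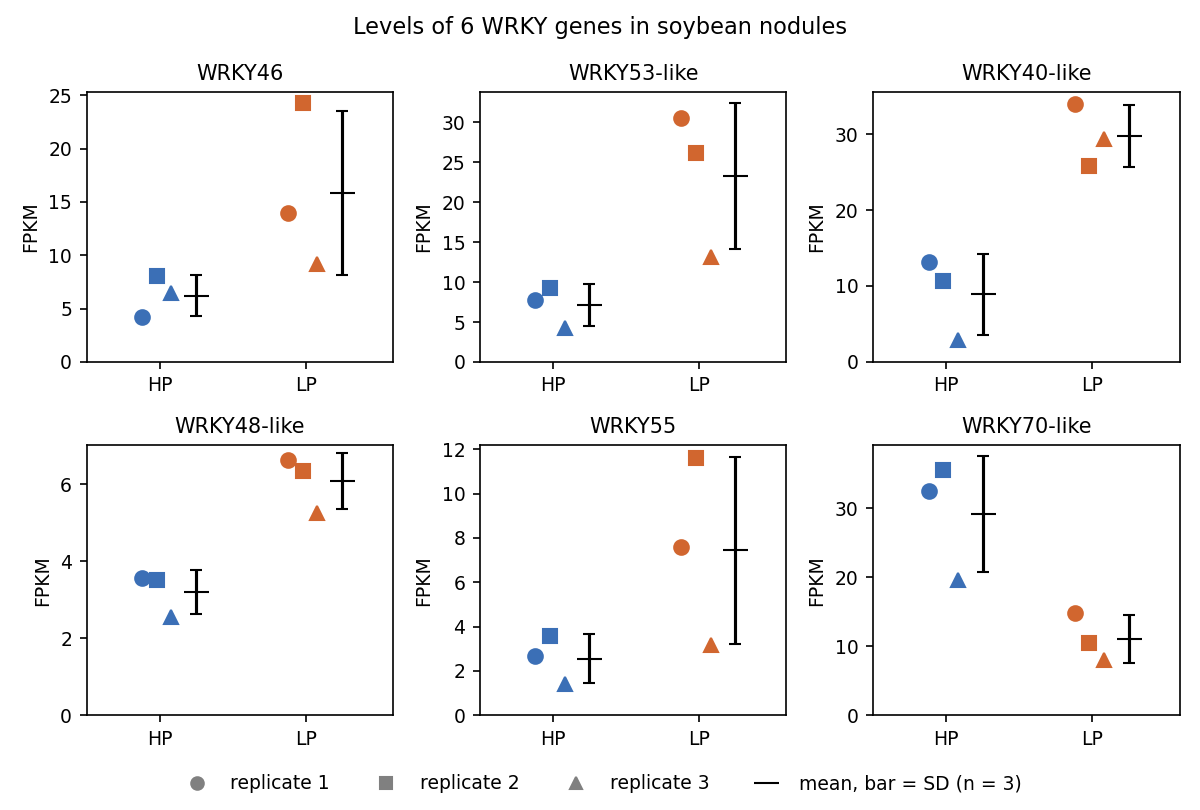
Level in FPKM (vertical axes, from 0) of each of the 6 WRKY genes in the HP (blue) and LP (orange) libraries; each symbol is 1 library, marked by replicate, and the black bar is the mean with its SD (n = 3). The LP symbols lie above the HP symbols in 4 panels, overlap them for WRKY55, where LP replicate 3 is at 3.16 FPKM, and lie below them for WRKY70-like.

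The order of the 6 genes by FPKM, which is scaled to gene length, changed between treatments. WRKY70-like was the most abundant in all 3 HP libraries, where it made up 50.8%, 50.3% and 52.7% of the summed FPKM of the 6 genes. In the LP libraries it made up 13.7%, 9.9% and 11.7% and fell behind 2, 4 and 3 of the other genes. WRKY40-like led in LP replicates 1 and 3, and WRKY53-like led in LP replicate 2 at 26.2 FPKM, with WRKY40-like next at 25.8 FPKM. In HP replicate 1, WRKY40-like, WRKY53-like and WRKY46 followed WRKY70-like in that order, but in HP replicate 3 WRKY46 came next after WRKY70-like and WRKY40-like was below WRKY53-like, so the middle of the order at HP did not exceed the spread between libraries. WRKY48-like and WRKY55 took the 2 lowest places in every library except LP replicate 2, where WRKY55 was above WRKY70-like, and in HP replicate 2 they were nearly level at 3.51 and 3.57 FPKM.

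A ratio of 2 genes within a library does not depend on the scaling of that library. WRKY53-like had 0.239, 0.263 and 0.218 times the FPKM of WRKY70-like at HP and 2.07, 2.52 and 1.65 times at LP. This was the tightest of the ratios to WRKY70-like on the log2 scale, with a within-treatment SD of 0.24 against 0.61 for WRKY53-like itself and 0.45 for WRKY70-like. WRKY40-like moved from 0.408, 0.298 and 0.150 at HP to 2.30, 2.48 and 3.69 at LP, the largest of these shifts at 3.39 on the log2 scale. WRKY46 had ratios of 0.129, 0.226 and 0.329 at HP and of 0.949, 2.34 and 1.15 at LP, and its ratio varied more within treatments (SD 0.68) than the gene did (SD 0.60). The ratio of WRKY48-like went from 0.110, 0.0989 and 0.129 to 0.448, 0.609 and 0.659, the smallest shift (2.33 on the log2 scale). For all 5 genes the lowest LP ratio was above the highest HP ratio, including WRKY55 (0.0827, 0.101 and 0.0716 at HP, then 0.512, 1.12 and 0.397 at LP), whose own levels overlapped.

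**Figure D2:**
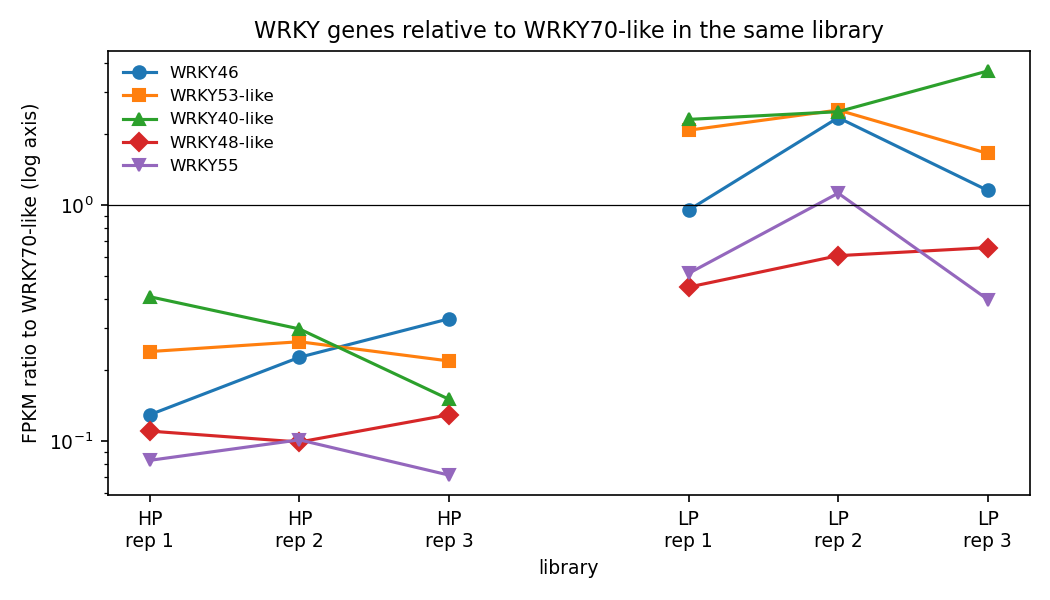
FPKM of 5 WRKY genes divided by that of WRKY70-like in the same library (vertical axis, logarithmic), for the 3 HP and 3 LP libraries; each symbol is 1 gene in 1 library, lines only join the values of a gene within a treatment, and the horizontal line marks a ratio of 1. All HP ratios are at or below 0.408 and all LP ratios at or above 0.397, and for each gene the LP values lie above the HP values.

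Replicates of these genes differed more than those of most genes. The SD within treatments on the log2 scale was 0.82 for WRKY40-like, 0.81 for WRKY55, 0.61 for WRKY53-like, 0.60 for WRKY46, 0.45 for WRKY70-like and 0.23 for WRKY48-like, against a median of 0.202 over all genes tested. For WRKY40-like, 98.1% of the genes tested had a smaller SD, and for WRKY48-like 57.0% did. Counting error alone gives an SD of at most 0.20 in any library of the 6 genes.

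The deviations of the libraries from their treatment means were largely shared, except by WRKY46. HP replicate 3 was the lowest HP library for 5 of the 6 genes, against 40.6% of all genes tested. The exception was WRKY46, whose lowest HP library was replicate 1. LP replicate 3 was the lowest LP library for 5 of the 6, against 42.6% of all genes tested. The exception was WRKY40-like, whose lowest was LP replicate 2. Both held for 4 of the 6 genes, against 14.4% of all genes tested. On the log2 scale, the 6 genes had a median deviation of -0.59 in HP replicate 3 and of -0.54 in LP replicate 3, while that of all genes was -0.03 in each. What set these 2 libraries apart was not tested.

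WRKY53-like and WRKY70-like, which differed between treatments in opposite directions, deviated together within them (Pearson r = 0.95 over 6 deviations, of which 4 are independent). Over the 15 pairs of the 6 genes, r ranged from -0.25 to 0.95 with a median of 0.74. The lowest value was that of WRKY46 with WRKY40-like. The points share their libraries and the scaling of each library, and with 3 libraries a treatment these values are a description only. In 74.4% of all comparisons of a pair in a library, both genes deviated in the same direction, and in 4 of the 15 pairs they did so in all 6 libraries. Each pair with WRKY46 did so in only 2 or 3 of the 6 libraries, with r from -0.25 to 0.69. The 10 pairs without WRKY46 did so in 5 or 6 libraries. No such share over all genes is given here.

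**Figure D3:**
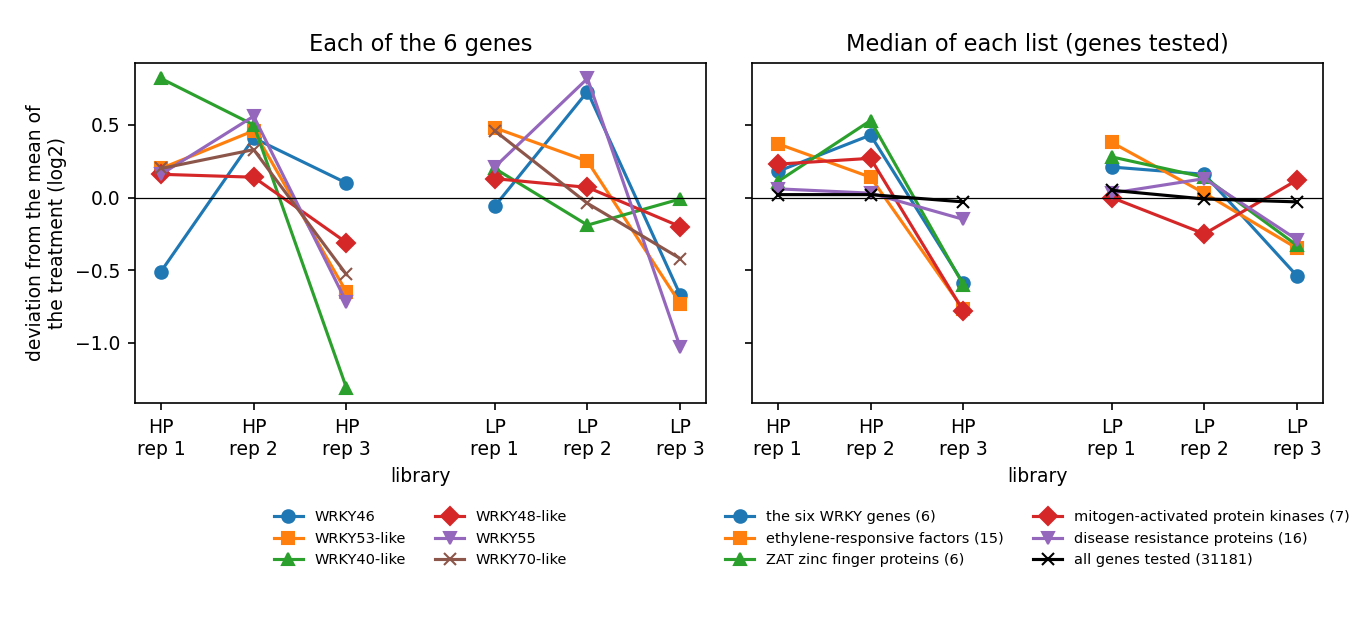
Deviation of each library from the mean of its treatment on the log2 scale (vertical axes), for each of the 6 WRKY genes (left) and as the median of each gene list with the number of genes tested in brackets (right); lines only join the values of a gene or list within a treatment. Replicate 3 is low in both treatments for most of the 6 genes, with medians of -0.59 and -0.54, while the median of all genes stays near 0.

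Among the other genes that the supplementary gene table of the study describes as WRKY, 5 were at hand, and these had been listed for a difference in these libraries too, so their direction is not independent evidence. All 5 had higher means at LP, but none passed the limma test with Benjamini-Hochberg adjustment and the 2-fold minimum in either direction; 4 had an unadjusted p under 0.05 and 2 an adjusted p under it. WRKY48-like on chromosome 17 (Glyma.17G035400), a second gene of that name, had 5.72, 6.11 and 4.83 FPKM at HP and 12.6, 12.3 and 8.28 FPKM at LP, with a log2 fold change of 0.96 (SE 0.18, adjusted p = 0.00838, limma). Its LP libraries were all above its HP libraries, and like its namesake on chromosome 7 it stayed just below 2-fold. WRKY33 (Glyma.11G163300), in Arabidopsis a regulator of resistance to necrotrophic fungi, had 1.38, 2.49 and 1.84 FPKM at HP and 3.74, 4.29 and 3.14 FPKM at LP, with a log2 fold change of 0.96 (SE 0.23, adjusted p = 0.0211, limma).

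In the other 3 the treatments overlapped. WRKY53 (Glyma.01G224800) had 3.67, 11.8 and 5.52 FPKM at HP and 11.0, 18.5 and 15.1 FPKM at LP (log2 fold change 1.21, SE 0.40, adjusted p = 0.065, limma). Its highest HP library was above its lowest LP library, unlike in WRKY53-like. WRKY40 (Glyma.15G003300) had 9.03, 7.34 and 4.16 FPKM at HP and a mean of 14.0 ± 5.80 FPKM at LP (SD, n = 3), with a log2 fold change of 1.01 (SE 0.37, adjusted p = 0.0858, limma). Both treatments were lowest in replicate 3, and LP replicate 3, at 8.39 FPKM, was below HP replicate 1. WRKY24-like (Glyma.09G254400) was the least abundant of these genes, with 0.660, 0.875 and 0.791 FPKM at HP and 4.74, 0.737 and 2.49 FPKM at LP (log2 fold change 1.33, SE 0.58, adjusted p = 0.133, limma). Whether any of these genes differed from the 6 in its response was not tested.

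**Figure D4:**
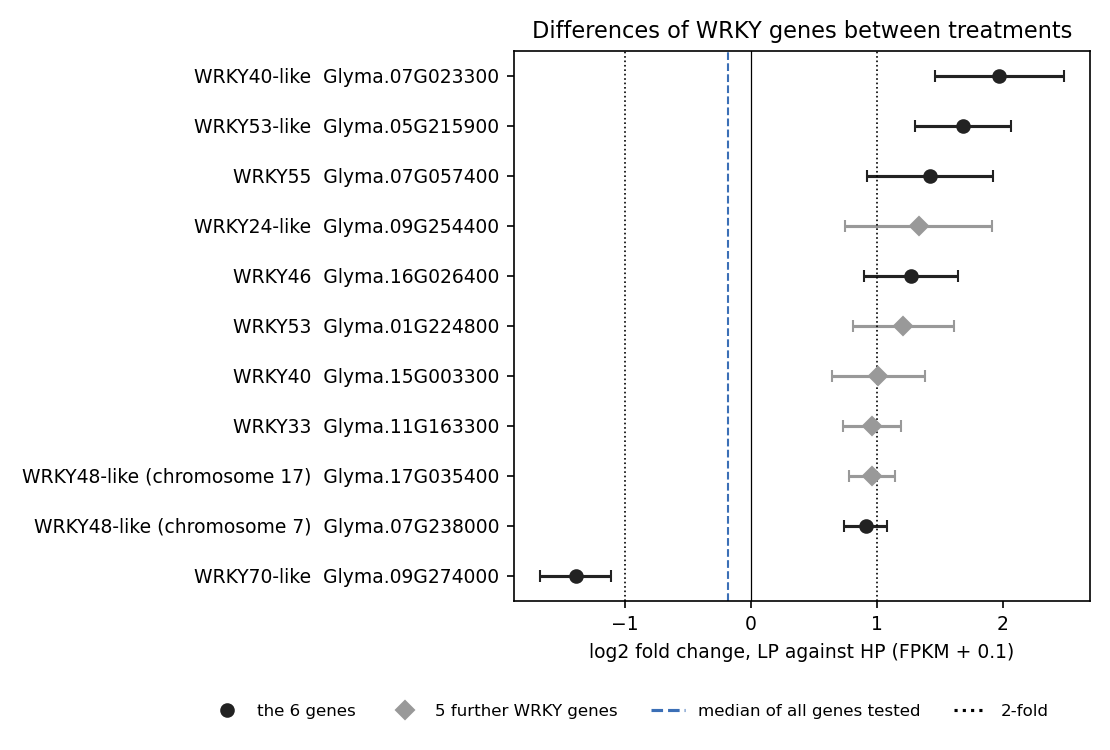
Log2 fold change of LP against HP on the log2(FPKM + 0.1) scale (horizontal axis) for the 6 WRKY genes (black circles) and the 5 further genes described as WRKY (grey diamonds); bars are the standard error of the limma fit (3 libraries a treatment), dotted lines mark 2-fold and the dashed line the median of all genes tested, -0.18. Only WRKY70-like, at -1.39, lies below 0 among these 11 genes, all of which had been selected on these libraries.

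Defence and stress genes that are often studied with WRKY factors were counted among the genes described in the same supplementary gene table, which again were selected on these libraries. Their counts and medians therefore differ from those of all genes by the way they were chosen, and nothing is read from that difference. The genes described as ethylene-responsive transcription factors were matched by that name. They include a CRF3-like and an AP2-like gene, and their response to ethylene was not tested. Of these factors, 10 of 15 tested were counted as higher and 1 as lower in the limma test, where 3.34% of all genes tested were higher and 4.39% lower. Of those counted as higher, Glyma.13G112400, Glyma.10G194200, Glyma.12G110400 and Glyma.17G070800 reached the minimum of 0.5 FPKM only in LP libraries. ERF017 (Glyma.15G180000) and ERF109-like (Glyma.02G132500) reached it in only 1 HP library each, so they too passed the filter through their LP libraries. The lower one, Glyma.13G040400, reached it only in HP libraries. Such genes entered the test through the treatment where they were high, so their calls are not read. The median log2 fold change of the 15 factors was 1.28, and that of all genes tested was -0.18. ERF017 (Glyma.15G180000) had 0.274, 0.510 and 0.401 FPKM at HP and 3.99, 5.67 and 2.95 FPKM at LP, a log2 fold change of 3.10 (SE 0.30), given as a description. ERF017-like (Glyma.13G112400) had a log2 fold change of 2.68 (SE 0.47). Without LP replicate 2 only 2 of 11 tested were counted as higher, without LP replicate 1 there were 3 of 11, without LP replicate 3 there were 6 of 11, and without HP replicates 3 and 2 in turn there were 4 and 6 of 14. The number higher was 14 of 15 with median-of-ratios scaling, 13 of 15 with quantile scaling, 11 of 14 without HP replicate 1 and 6 of 10 with a minimum of 1 FPKM. The number lower was 0 with an added constant of 1 and without LP replicate 2 or LP replicate 3. It was also 0 without any 1 HP library, where Glyma.13G040400 no longer passed the minimum and was not tested. HP replicate 3 was the lowest HP library for 13 of the 15 factors and LP replicate 3 the lowest LP library for 12, as they were for most of the WRKY genes. Over all genes tested, the shares were 40.6% and 42.6%.

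Of the ZAT zinc finger genes, which in Arabidopsis encode stress-induced repressors, 5 of 6 rose in the limma test (3.34% of all genes tested), and the remaining one, ZAT4-like (Glyma.17G076900), had a log2 fold change of 0.94 (SE 0.15, adjusted p = 0.00406), under 2-fold. ZAT10 (Glyma.06G045400) had 6.01, 7.61 and 3.00 FPKM at HP and 40.3, 31.8 and 16.1 FPKM at LP, a log2 fold change of 2.39 (SE 0.42, adjusted p = 0.00792, limma). ZAT10-like (Glyma.04G044900) rose by 1.90 (SE 0.43, adjusted p = 0.0185, limma). Replicate 3 was the lowest library of HP for all 6 and of LP for 5, against 40.6% and 42.6% of all genes tested. Without LP replicate 1, and likewise without LP replicate 2, 1 of the 6 was counted as higher, and 3 were without HP replicate 1 or with eBayes without trend and robust.

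Mitogen-activated protein kinases, some of which phosphorylate WRKY factors in Arabidopsis immunity, were listed together with their upstream kinases. Of 7 genes, 3 were counted as higher and 1 as lower, against 3.34% and 4.39% of all genes tested. All of those counted were described as kinase kinase kinases, which act upstream. The gene described as a mitogen-activated protein kinase itself was not counted, nor was the kinase kinase. The number higher was 5 with median-of-ratios scaling, with quantile scaling and without HP replicate 2. It was 2 with eBayes without trend and robust, with the replicate number as a block, and without HP replicate 1, LP replicate 1 or LP replicate 2. The number lower was 0 with an added constant of 1. The kinase kinase kinase 2-like gene Glyma.17G173000 had 2.44, 1.85 and 0.710 FPKM at HP and 6.78, 5.01 and 6.49 FPKM at LP, with a log2 fold change of 1.95 (SE 0.40, adjusted p = 0.0136, limma). The kinase kinase kinase A-like gene Glyma.12G097200 rose by 1.68 (SE 0.33, adjusted p = 0.0104, limma). HP replicate 3 was the lowest HP library for 6 of the 7 kinases (40.6% of all genes tested), but LP replicate 3 was the lowest LP library for 2 (42.6% of all genes tested).

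Disease resistance proteins, mostly intracellular immune receptors, had 3 of 16 tested genes higher and 1 lower in the limma test, against 3.34% and 4.39% of all genes tested, and 12 not counted. The RGA3-like gene Glyma.15G126900 had a log2 fold change of 1.82 (SE 0.23). It reached the minimum of 0.5 FPKM only in the LP libraries, where it was high, so its call is not read. The RPM1-like gene Glyma.09G210400 rose by 1.29 on the log2 scale (SE 0.30, adjusted p = 0.0178, limma). The number counted as higher was 13 of 16 with median-of-ratios scaling, 10 of 16 with quantile scaling, 9 of 14 without LP replicate 3, 1 of 14 without LP replicate 1 and 1 of 16 with an added constant of 1. Of 2 respiratory burst oxidase genes, which encode enzymes that make superoxide, 1 rose, the homolog B-like gene Glyma.03G236300 by 1.96 (SE 0.36, adjusted p = 0.00891, limma), and both were counted as higher with median-of-ratios scaling or without LP replicate 1. Of 2 genes described as pathogenesis-related, STH-2 (Glyma.17G030000) rose by 1.01 (SE 0.27, adjusted p = 0.0328, limma) and pathogenesis-related protein 10 (Glyma.09G040500) had a log2 fold change of -1.63 (SE 0.48). Neither was counted with an added constant of 1, and STH-2 was not counted as higher without HP replicate 1, HP replicate 3, LP replicate 1 or LP replicate 2. The other gene was not counted as lower with median-of-ratios scaling or on leaving out any 1 library. It reached the FPKM minimum only in the HP libraries and was not tested when 1 of these was left out, so its call is not read. Glyma.05G085200 is described as calmodulin-like in that table, but elsewhere the study names it annexin and reports it as higher at LP. It is left without a role here. In the FPKM values it went the other way: its log2 fold change was -1.30 (SE 0.27, adjusted p = 0.0115, limma). It was not counted with an added constant of 1. The reason for the opposite sign was not tested.

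Of genes known from nodules, 2 were described as early nodulin-70, a membrane transporter-like protein of soybean nodules. They come from the same supplementary gene table, selected on these libraries, and were added after the values had been seen. Their difference between treatments is therefore a description and no neutral check of the tissue. Glyma.11G238500 had 86.4, 62.2 and 104 FPKM at HP and 12.3, 27.1 and 23.1 FPKM at LP (log2 fold change -2.06, SE 0.31). Glyma.18G018900 had 113, 100 and 161 FPKM at HP and 20.7, 46.9 and 40.5 FPKM at LP (log2 fold change -1.84, SE 0.32). Both were present in all libraries with lower means at LP. Both were highest in HP replicate 3 among the HP libraries, the library in which 5 of the 6 WRKY genes were lowest. Their part in the WRKY differences was not tested.

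Among 16658 genes with a mean of 5 FPKM or more, the profile over the 6 libraries closest to the mean profile of the 5 genes higher at LP was that of Glyma.02G035200 (distance 0.34 on the log2 scale after centring), a gene for an uncharacterized protein. It had 12.1, 11.6 and 7.49 FPKM at HP and 33.3, 33.1 and 21.7 FPKM at LP, so it too was lowest in replicate 3 of each treatment. Glyma.17G118200 (0.42) and Glyma.19G018700 (0.44) came next. Closest to WRKY70-like was Glyma.19G219000 (distance 0.38), with 11.0, 11.0 and 6.02 FPKM at HP and 5.72, 2.92 and 2.21 FPKM at LP. Glyma.17G084600 (0.44) and the RSI-1-like gene Glyma.14G215600 (0.48) followed. These distances use the same libraries as the choice of the 6 genes and are a description.

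Neighbouring genes were looked at because the 6 WRKY genes lie at 6 separate places. Of the 12 genes that flank the 6 WRKY genes, 10 were tested, and none passed the limma test with the 2-fold minimum. Over all genes tested, only 3.34% were higher and 4.39% lower, so nothing is read from this count. Of the 10 flanking genes, 5 had an unadjusted p under 0.05 and 1 an adjusted p under it. Their log2 fold changes ran from -0.89 to 0.19 with a median of -0.30, where the median of all genes tested was -0.18. Beside WRKY55, whose mean was higher at LP, Glyma.07G057300 had 4.32, 4.98 and 3.88 FPKM at HP and 2.94, 1.55 and 2.66 FPKM at LP (log2 fold change -0.89, SE 0.24, adjusted p = 0.0312, limma). Glyma.05G215800, on the opposite strand, adjoins WRKY53-like with no base between the gene models, and it had a log2 fold change of -0.41 (SE 0.16, adjusted p = 0.0945, limma). Whether the counting used strand is not given in the sources used here, so reads running past the end of either gene could not be assigned with certainty.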

How the data were processed

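The authors sequenced oligo(dT)-selected RNA, aligned the reads to the Williams82.a2.v1 assembly with HISAT2 2.1.0 (index built with Bowtie2 2.2.3), estimated abundance with Cufflinks, tested differences with DESeq2 1.6.3 and deposited FPKM values for each library. Genes not listed in a library were set to 0. The tool that counted fragments is not given in the sources used here.

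Values were tested as log2(FPKM + 0.1) with limma 3.58.1 in R 4.3.3 (eBayes with trend and robust, statmod 1.5.0; Python 3.11.15 for the rest) over the 31181 genes that reached 0.5 FPKM in 3 libraries. Tests were two-sided with Benjamini-Hochberg adjustment across those genes, and the thresholds were 0.05 and 2-fold. The fit was tested on simulated data, and the median SE of a log2 fold change was 0.166. Whole fragment numbers were recovered from the FPKM values alone, as the smallest that fit a whole gene length, so the true numbers could be whole multiples of them. They gave counting intervals only.

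The 6 genes and all lists were chosen with earlier results of these data known. Names come from the study and from protein descriptions in the part of its supplementary gene table at hand. RefSeq (Glycine_max_v4.0) matched 4 of the 6 by protein accession, and of these only WRKY55 has a WRKY symbol there. It gives the symbols WRKY46, WRKY40 and WRKY48 to genes on chromosome 8 and WRKY53 to a gene on chromosome 19. Those are other genes than the ones that carry these names here. Genes named in the text are the 6, the further WRKY genes, the 2 called genes with the largest fold of each list and the 3 nearest profiles. ZAT4-like, the ethylene-responsive factors named for the FPKM minimum, the early nodulin-70 and the flanking genes were added after the values were seen. Paralogs by protein identity, VQ proteins and promoter motifs were not analysed here. No chlorophyll a-b binding or casparian strip gene was described, and leghemoglobin genes were not used here. Replicates are pooled plants of 1 experiment, so p-values measure the spread between these libraries.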

Additional observations from a re-analysis of the deposited data

How the results depend on the processing

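None of the 5 further WRKY genes was counted as higher at LP with an added constant of 1 or 0.01, with no minimum, with a minimum of 1 FPKM (4 tested) or with eBayes without trend and robust. The number was 2 with median-of-ratios scaling, 2 with quantile normalization and 2 with the adjusted p alone. Leaving out 1 library gave 0 to 3, with 3 without HP replicate 2, 3 without LP replicate 3 and 1 without LP replicate 2. None was counted as lower under any of these. With the replicate number as a block, 2 were counted as higher. Neither the labels nor the paper say whether same-numbered HP and LP libraries are paired, and pairing was not tested. Same-numbered libraries had correlations of 0.17, -0.02 and -0.15 between their deviations over all genes. HP replicate 1 was closest to LP replicate 1, but HP replicates 2 and 3 were each closer to an LP library of another number. The block lowered the SE of WRKY53-like from 0.38 to 0.13 and that of WRKY55 from 0.50 to 0.16. The log2 fold changes of the 6 genes kept their sign under all 13 alternatives. All 78 values moved by less than 1 SD within treatments, but most could not have moved further, so nothing is read from this. The block and the changed minimums leave a fold change as it is. Leaving out 1 of 3 libraries always moves a mean by less than that SD. The log2 fold changes ranged from 1.31 to 2.38 for WRKY40-like and from 0.76 to 1.09 for WRKY48-like, which passed 2-fold in 3 of the 13. Median-of-ratios scaling moved the median of all genes from -0.18 to 0.00 and raised each log2 fold change by about that amount. It turned the 1041 higher and 1370 lower genes into 1404 and 676, quantile normalization into 1298 and 806, and a constant of 1 into 751 and 602. The causes were not tested. The same-sign share of 74.4% was 68.9% after median-of-ratios scaling. Alternatives for paralogs were not run. With 3 libraries a treatment, WRKY55 at 50 fragments in HP replicate 3 is the value most limited by depth.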
